A study of Mus musculus with 6 samples.

Results

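The 37 genes described here encode the enzymes of glycolysis and of the pentose phosphate pathway, the proteins that handle lactate and pyruvate, and the oxygen-sensing pathway with genes it induces. They were chosen by name. A gene counted as measured where a probe set of the array carried its symbol and no other symbol, and the probe set with the highest mean signal over all arrays stood for the gene. Ero1l was found under its current symbol, Ero1a. This gave 33 of the 37 genes, among 19938 genes on the array. Gapdh was named on 25 probe sets, each shared with other genes, and Gpi1, Eno1 and G6pdx were named on no probe set of their own, so these 4 genes have no value here.

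The samples were keratinocytes, the main cells of the epidermis, laser-captured at the front of the epithelial tongue that grows over a mouse skin wound, on day 3. The 3 diabetic samples came from mice that ate a diet high in fat and fructose for 16 weeks, beginning at an age of 8 weeks, and the 3 normal samples from mice on a control diet over the same time. Neither strain nor genotype is given in the sources used here, cells cut from all sections of a sample went into a common pool, and E-cadherin staining marked where to cut. The arrays are titled biological replicates without a statement that each was a separate animal, so the p-values reflect only how these samples vary, which may be technical. The comparison asks how gene expression in keratinocytes that close a wound differs in diabetes.

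Glycolysis splits glucose into pyruvate and yields ATP without oxygen, and the pentose phosphate pathway branches from it to make NADPH and ribose. In low oxygen the transcription factor HIF-1 accumulates because its prolyl hydroxylases, the EGLN enzymes, no longer mark its alpha subunit for destruction by the VHL ubiquitin ligase. HIF-1 then raises glycolytic enzymes, glucose and lactate transporters and a set of stress genes. A skin wound is poor in oxygen in its early days, and migrating keratinocytes are known to draw on glycolysis.

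The signals were faint, which limits what can be said of many of these genes. Values are taken as log2 probe set signals. The base was inferred from their range, so each fold change and linear sum given here holds only if that base is right. A background limit was set on each array at the 95th percentile of 1194 odorant and pheromone receptor genes, taken as largely silent in skin. The limit lay between 1.98 and 2.12. Signal exceeded it on all 6 arrays for 10 of the 33 genes, on some arrays for 9 and on none for 14. Of all genes on the array, 17.4% exceeded it on all 6. With the 99th percentile as the limit, Pkm alone of the 33 stayed above it on every array. For a gene that did not exceed its limit the level is known only as an upper bound, and its difference describes array signal. Cdh1, which encodes the E-cadherin used to find the cells, was under the limit on all 6 arrays, at 1.88, 1.84 and 1.92 on the diabetic arrays and at 2.04, 2.06 and 2.01 on the normal ones. Of 20 keratinocyte markers, 3 were above the limit on every array and 6 on none.

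Between diabetic and normal keratinocytes none of the 33 genes passed the test, and their signals were spread about 0 difference much as those of all genes. With limma and Benjamini-Hochberg adjustment over the whole table, 0 of 33 passed an adjusted p under 0.05, where 0% of all genes did, and an ordinary linear model called 0 as well. An unadjusted p under 0.05 was reached by 2 of the 33, Egln3 with higher and Bnip3 with lower signal in diabetic samples, beside 5.56% of all genes. Of the 33, 17 had higher and 16 lower signal. Their median difference was 0.01 on the log2 scale, where the median over all genes was less than 0.01 in size. The groups did not overlap for 3 of the 33, Egln3, Ndrg1 and Bnip3, and 10.7% of all genes had no overlap. With the signals read as log2, the 95% confidence intervals of 32 of the 33 stayed inside a 2-fold change, up or down. Over all genes 19855 of 19938 did. Those of 26 stayed inside a 1.5-fold change. Over the 19938 genes of the array 18121 had intervals inside 1.5-fold, a larger share. Ldha had the interval that reached past 2-fold. Within a group the median SD over the 33 was 0.13 in diabetic and 0.15 in normal samples, beside 0.13 and 0.14 over all genes. Over the 10 above the limit on every array it was 0.15 in diabetic and 0.22 in normal samples. The like median over all genes above the limit was not computed, so whether these 10 vary unusually is not known.

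**Figure D1:**
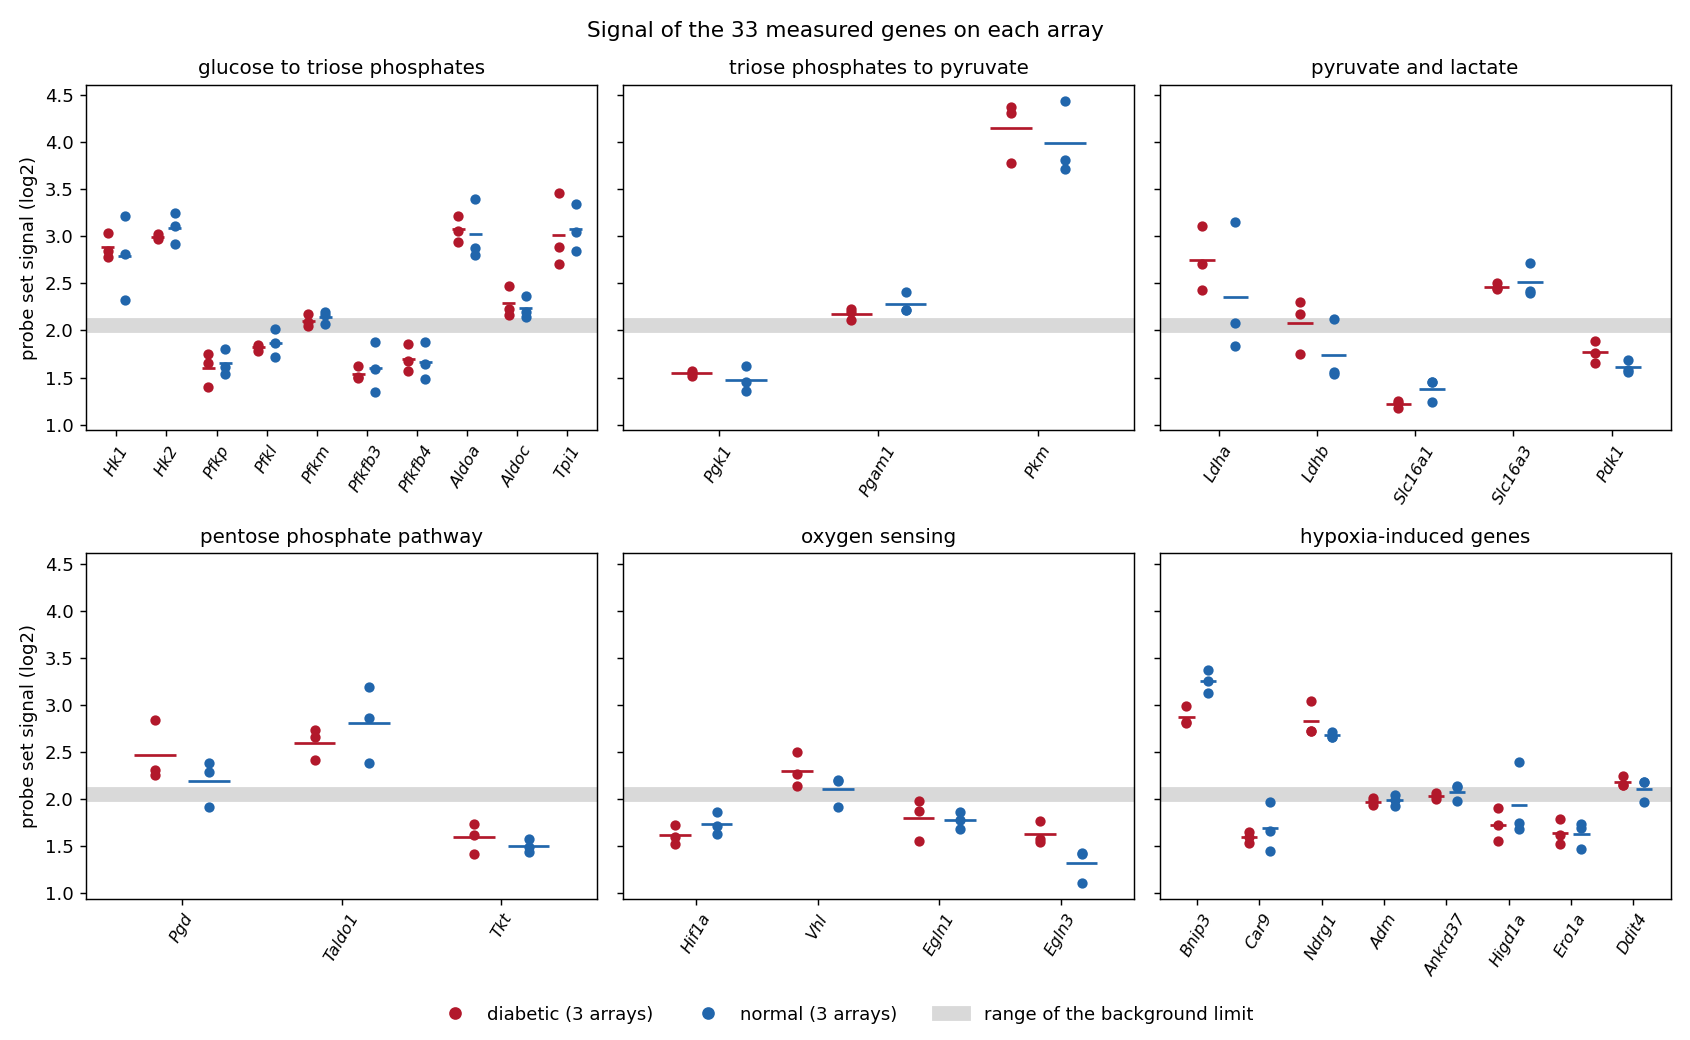
Log2 probe set signal (vertical axis) of the 33 measured genes in 6 panels by role. For each gene the 3 diabetic arrays are on the left in red and the 3 normal arrays on the right in blue, bars mark group means, and the grey band spans the background limits of the 6 arrays (1.98 to 2.12). Bnip3 and Egln3 show separate groups, and Egln3 lies wholly under the band.

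**Figure D2:**
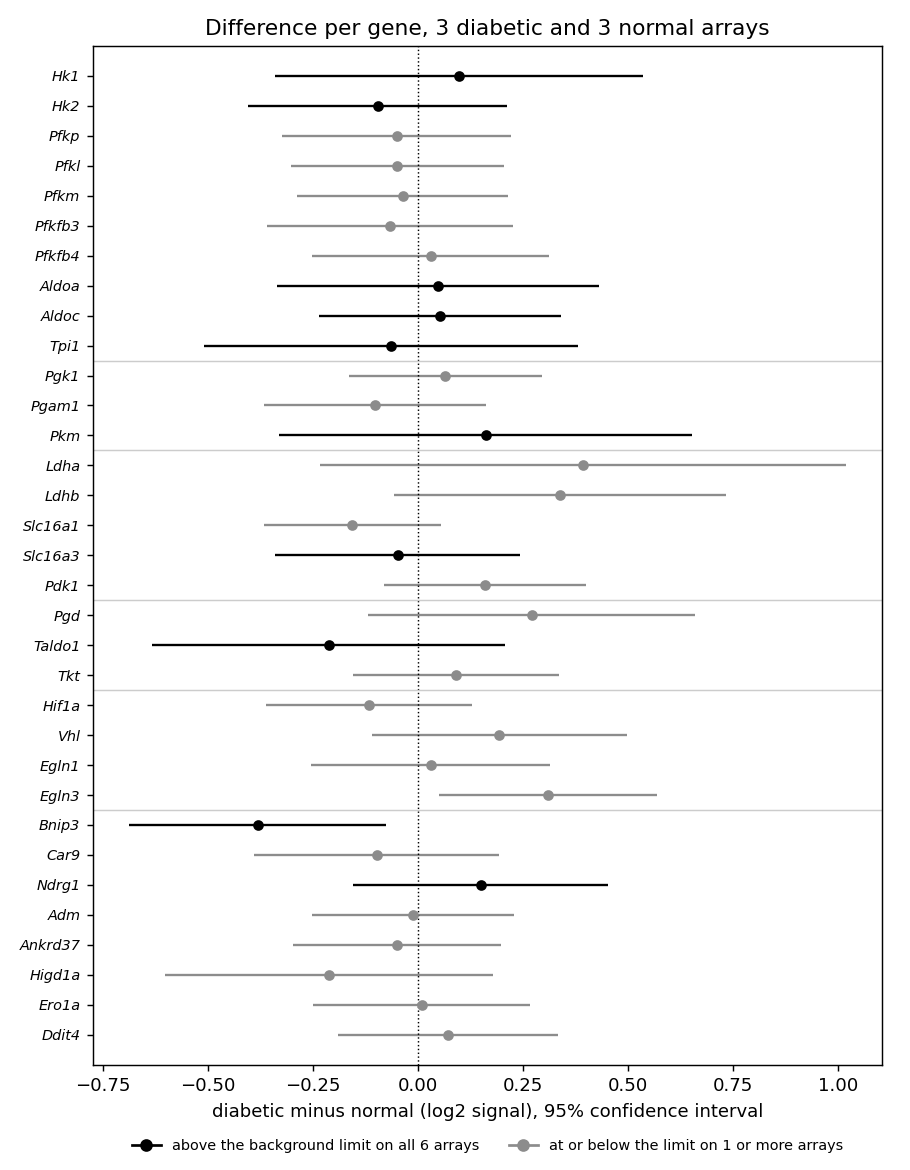
Difference in log2 signal, diabetic minus normal (horizontal axis), for each of the 33 genes with its 95% confidence interval from limma. Black marks the 10 genes that exceeded the background limit on every array, grey the other 23. The intervals of Egln3 and Bnip3 exclude 0 before adjustment, and every other interval includes it.

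The steps from glucose to the triose phosphates held 10 measured genes, 4 higher and 6 lower, with differences between -0.10 and 0.10 in log2 signal. Hexokinases trap glucose in the cell as glucose 6-phosphate, and both were above the limit on every array. Hk2, the form that HIF-1 and insulin raise, was at 2.97, 3.03 and 2.99 in diabetic and 3.11, 2.92 and 3.24 in normal samples. The diabetic values lay inside the range of the normal ones, and the difference was -0.10 (SE 0.14, 95% interval -0.40 to 0.21). Hk1, the form found in most tissues, was at 3.04, 2.85 and 2.78 in diabetic and 2.33, 2.82 and 3.22 in normal samples. Its normal arrays spanned 0.89 in log2 signal, so the difference of 0.10 (SE 0.20) became 0.31 without normal replicate 3 and -0.13 without normal replicate 1. A dimmer Hk1 probe set read between 2.39 and 2.47 on all arrays, with a difference of -0.01.

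Phosphofructokinase commits sugar to glycolysis, and its subunits were near or under the limit. The muscle-type subunit Pfkm was above it on 4 arrays, between 2.04 and 2.18 in diabetic and between 2.07 and 2.19 in normal samples. The liver-type subunit Pfkl and the platelet-type subunit Pfkp were above it on none, with differences of -0.05 for each. Pfkfb3 and Pfkfb4, which make the allosteric activator fructose 2,6-bisphosphate, were also under the limit on all arrays, at -0.07 and 0.03.

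Aldolase splits the 6-carbon sugar and triosephosphate isomerase interconverts the products. Aldoa, the aldolase of muscle and most cells, was at 3.06, 3.22 and 2.94 in diabetic and 2.81, 3.40 and 2.87 in normal samples, and the groups differed by 0.05 (SE 0.18). Tpi1 was at 2.88, 3.46 and 2.71 in diabetic and 2.85, 3.35 and 3.05 in normal samples. The difference came to -0.06 (SE 0.20). In both genes replicate 2 was the highest array of each group, and the groups overlapped over most of their range. Aldoc, the brain-type aldolase and a HIF target, was at 2.47, 2.16 and 2.23 in diabetic and 2.19, 2.14 and 2.37 in normal samples, and the groups differed by 0.05 (SE 0.13).

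From the triose phosphates to pyruvate, 3 of 5 genes were measured. Pkm encodes pyruvate kinase, which makes pyruvate and ATP in the last step, and its brighter probe set was at 4.37, 4.31 and 3.78 in diabetic and 4.44, 3.72 and 3.82 in normal samples. Each group held arrays near the top and near the bottom of that range, and the difference was 0.16 (SE 0.23, 95% interval -0.33 to 0.65). The dimmer Pkm probe set gave a like difference, 0.18, but ordered the arrays otherwise. Its values were 3.16, 3.59 and 2.98 in diabetic and 3.07, 3.37 and 2.76 in normal samples, with replicate 2 the highest of each group as for Aldoa and Tpi1.

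Phosphoglycerate mutase (Pgam1) was above the limit on 5 arrays and differed by -0.10 (SE 0.12). Phosphoglycerate kinase (Pgk1) was under it on all 6 and differed by 0.07 (SE 0.11). For each of these 2 genes a pair of probe sets carried identical values on every array, so such pairs are no independent readings. The remaining probe set of Pgam1 differed by -0.15 and that of Pgk1 by 0.01.

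Lactate dehydrogenase gave the 2 largest positive differences of the 33, neither past the test. That of Ldhb was seen with only the brighter of its probe sets. Ldha, the subunit that favours making lactate, was at 2.71, 3.10 and 2.43 in diabetic and 2.08, 3.15 and 1.83 in normal samples. Normal replicate 2 had the highest signal of all 6 arrays, while the other normal arrays lay below every diabetic array. All 3 diabetic arrays but only 1 normal array, replicate 2, exceeded the limit. Levels on the other normal arrays are thus upper bounds, and the differences given next describe array signal. The difference was 0.39 (SE 0.29, 95% interval -0.23 to 1.02), with an adjusted p of 0.911 in limma. It was 0.79 without normal replicate 2, with an adjusted p of 0.621 in limma, and 0.13 without normal replicate 3.

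Ldhb, the subunit of oxidative tissues, was at 2.17, 1.75 and 2.30 in diabetic and 1.56, 2.12 and 1.54 in normal samples. As for Ldha, normal replicate 2 stood apart from the other normal arrays, and it was above the limit there. The difference was 0.34 (SE 0.18, adjusted p of 0.893 in limma), and 0.53 without normal replicate 2. The other Ldhb probe set differed by -0.02, so the size rests on the brighter probe set.

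Of the lactate transporters, Slc16a3 (MCT4, which exports lactate) was above the limit everywhere. It was at 2.51, 2.44 and 2.45 in diabetic and 2.40, 2.42 and 2.72 in normal samples. The difference came to -0.05 (SE 0.13). Slc16a1 (MCT1) was under the limit on all arrays and differed by -0.16 (SE 0.10). Pdk1, the kinase that keeps pyruvate out of the mitochondrial pyruvate dehydrogenase, was also under the limit, with a difference of 0.16 (SE 0.11).

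For Aldoa, Tpi1, Ldha and the dimmer Pkm probe set, the spread within a group exceeded the difference between groups. Each had its highest value in both groups on replicate 2, a pattern picked out after the values were seen. Averaged over Aldoa, Tpi1 and Ldha, diabetic replicate 2 stood 0.32 above its group mean and normal replicate 2 stood 0.48 above its own. Genes above the limit on every array stood on average 0.03 and 0.02 above their group means on these arrays. Of the 10 genes above the limit on every array, 3 were highest on replicate 2 in both groups (Aldoa, Tpi1 and Bnip3) and 2 on replicate 1 (Taldo1 and the brighter Pkm probe set). No label links arrays of the same number.

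Markers of other cells differed among the arrays too. The summed linear signal of 15 skeletal muscle genes, a tissue rich in glycolytic enzymes, was 89.95, 84.05 and 82.38 in diabetic samples, against 75.68, 80.33 and 81.79 in normal samples, without overlap. Of these 15 genes 6 were above the limit on all arrays, among them the creatine kinase gene Ckm and the troponin genes Tnni2 and Tnnc2, and 3 on none. In diabetic samples 12 of the 15 were higher and 3 lower, Tnnc2 among the lower, with a median difference of 0.09. The sum of 12 neutrophil genes, cells that live on glycolysis, ran from 40.03 to 41.18 in diabetic and from 41.46 to 47.09 in normal samples. The groups did not overlap here either, but the nearest values were 41.18 and 41.46. Among single genes of the array 10.7% had no overlap. The highest neutrophil sum was on normal replicate 2, at 47.09, and diabetic replicate 2 had a sum of 40.54. Of the 12 genes 4 were higher and 8 lower in diabetic samples, with a median difference of -0.02, and 7 were above the limit on no array. The brightest of them, Retnlg, was the one gene above it everywhere, at 2.48, 2.23 and 2.11 in diabetic and 2.34, 2.13 and 2.25 in normal samples. S100a9 was at 2.09, 1.83 and 2.19 in diabetic and 1.82, 3.08 and 2.25 in normal samples. Normal replicate 2 was the highest array for S100a9 and the lowest normal array for Retnlg. Keratinocyte markers summed to between 82.94 and 86.00 in diabetic and between 85.49 and 95.43 in normal samples. The 11 fibroblast markers summed to between 80.65 and 91.19 in diabetic and between 78.81 and 86.22 in normal samples. Of the 11, 5 were above the limit on every array, beside 3 of the 20 keratinocyte markers. Mean log2 signal per array lay between 2.50 and 2.62 for fibroblast and between 2.22 and 2.44 for skeletal muscle markers. For keratinocyte markers it lay between 2.00 and 2.17. Macrophage, endothelial and red blood cell sums overlapped between the groups. The part of these cells in any difference given here was not tested, and in pooled captured cells fewer cells of a type and less RNA per cell cannot be told apart.

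**Figure D3:**
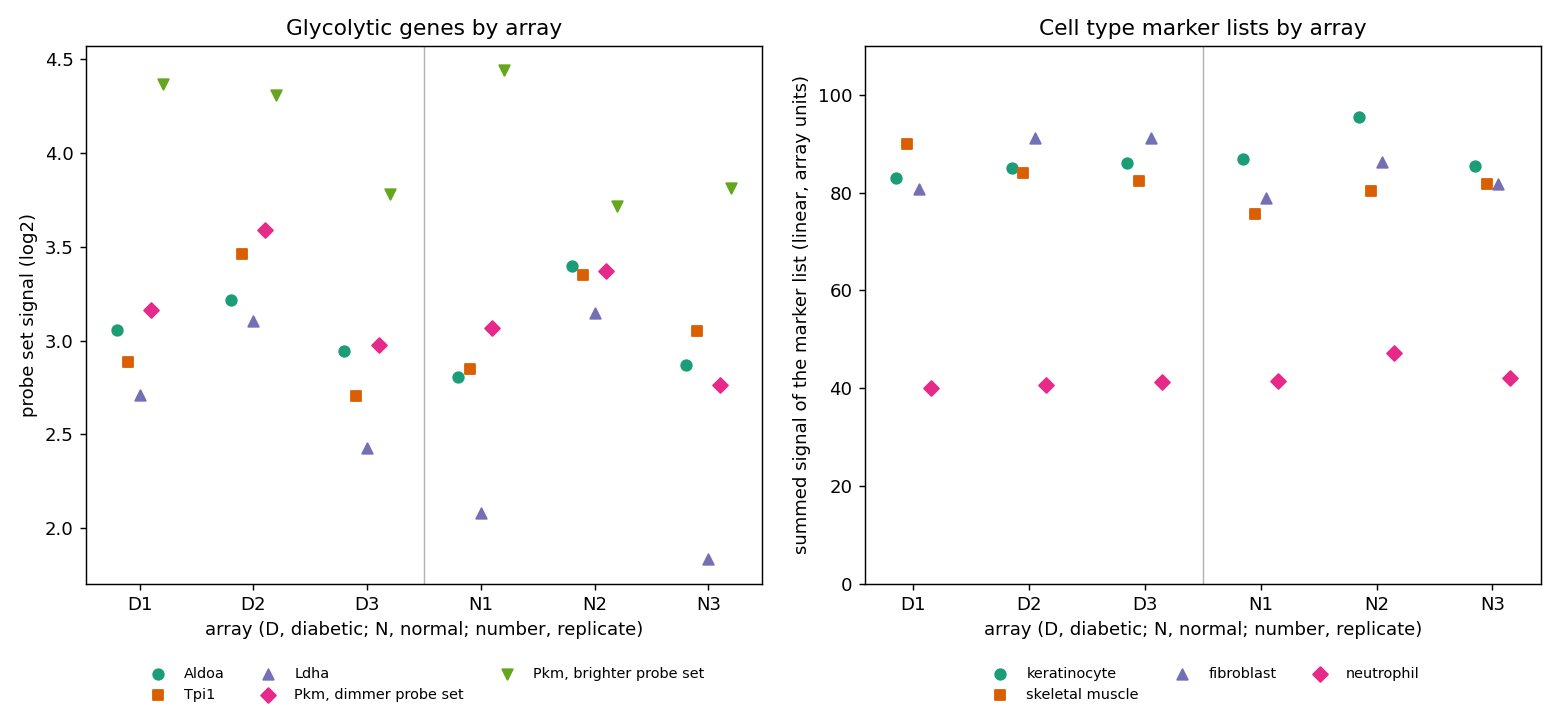
Left, log2 signal of Aldoa, Tpi1, Ldha and both Pkm probe sets on each of the 3 diabetic (D) and 3 normal (N) arrays. Right, summed linear signal of 4 cell type marker lists on the same arrays. Replicate 2 is the highest array of its group for 4 of the 5 readings on the left, and on the right normal replicate 2 has the highest keratinocyte and neutrophil sums.

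The pentose phosphate pathway was read by 3 of 4 genes, 2 higher and 1 lower. Pgd, 6-phosphogluconate dehydrogenase of the NADPH-yielding branch, was at 2.26, 2.84 and 2.30 in diabetic and 1.91, 2.29 and 2.38 in normal samples. The difference was 0.27 (SE 0.18, adjusted p of 0.906 in limma) and 0.09 without diabetic replicate 2. Taldo1, transaldolase of the sugar-exchanging branch, was at 2.73, 2.65 and 2.41 in diabetic and 3.19, 2.38 and 2.86 in normal samples. Its difference was -0.21 (SE 0.19), -0.43 without normal replicate 2 and -0.02 without normal replicate 1. Tkt, transketolase, was under the limit on all arrays and differed by 0.09 (SE 0.11).

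The oxygen sensor itself was faint. Hif1a, the regulated HIF-1 subunit, lay between 1.53 and 1.72 in diabetic and between 1.63 and 1.86 in normal samples. No array exceeded the limit for it, with a difference of -0.12 (SE 0.11). HIF-1 is controlled mostly at the protein level, which arrays do not read. Vhl was above the limit on 5 arrays, at 2.13, 2.50 and 2.26 in diabetic and 1.92, 2.20 and 2.19 in normal samples, and the groups differed by 0.19 (SE 0.14). Egln1, the main hydroxylase in most tissues, was under the limit and differed by 0.03 (SE 0.13).

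Egln3 is a hydroxylase that HIF-1 also induces, as part of a feedback loop. Signal was 1.77, 1.58 and 1.54 in diabetic and 1.11, 1.42 and 1.42 in normal samples, every diabetic array above every normal array and all 6 under the background limit. The difference was 0.31 (SE 0.12, 95% interval 0.05 to 0.57), or 1.24-fold if the signals are log2. In limma the unadjusted p was 0.0233 and the adjusted p 0.839. Egln3 ranked 545 of 19938 genes by p. Without normal replicate 1, the lowest array, the difference was 0.20.

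The 8 genes that HIF-1 induces were split, 3 higher and 5 lower. Bnip3, a mitochondrial protein that directs mitochondria to autophagy, was at 2.81, 2.99 and 2.81 in diabetic and 3.25, 3.37 and 3.13 in normal samples, above the limit on all arrays. Every diabetic array was below every normal array. The difference was -0.38 (SE 0.14, 95% interval -0.69 to -0.08), or 0.77-fold if the signals are log2. In limma the unadjusted p was 0.0189 and the adjusted p 0.835. The dimmer Bnip3 probe set was at 1.94, 1.47 and 2.06 in diabetic and 1.66, 1.67 and 2.43 in normal samples, with overlapping groups and a difference of -0.09.

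Ndrg1, a stress and differentiation gene that low oxygen raises strongly, was at 2.72, 3.04 and 2.72 in diabetic and 2.66, 2.66 and 2.71 in normal samples. The groups did not overlap, but by less than 0.01, and the difference of 0.15 (SE 0.14) was 0.04 without diabetic replicate 2. Higd1a, a small mitochondrial protein of the hypoxia response, was at 1.90, 1.72 and 1.56 in diabetic and 1.68, 1.75 and 2.39 in normal samples. Its difference of -0.21 (SE 0.18) rested on normal replicate 3, the only array on which it exceeded the limit. Without that array the difference was 0.02. The dimmer Higd1a probe set differed by -0.09 and read 1.85, 1.62 and 1.70 in normal samples, so replicate 3 did not stand out there.

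The others of this group differed by between -0.10 and 0.07. Car9, a carbonic anhydrase of the cell surface and a standard hypoxia marker, was under the limit on all arrays, as were the vasodilator peptide gene Adm and the disulfide-forming oxidase gene Ero1a. Ankrd37 was above it on 3 arrays and Ddit4, which restrains mTORC1, on 5.

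**Figure D4:**
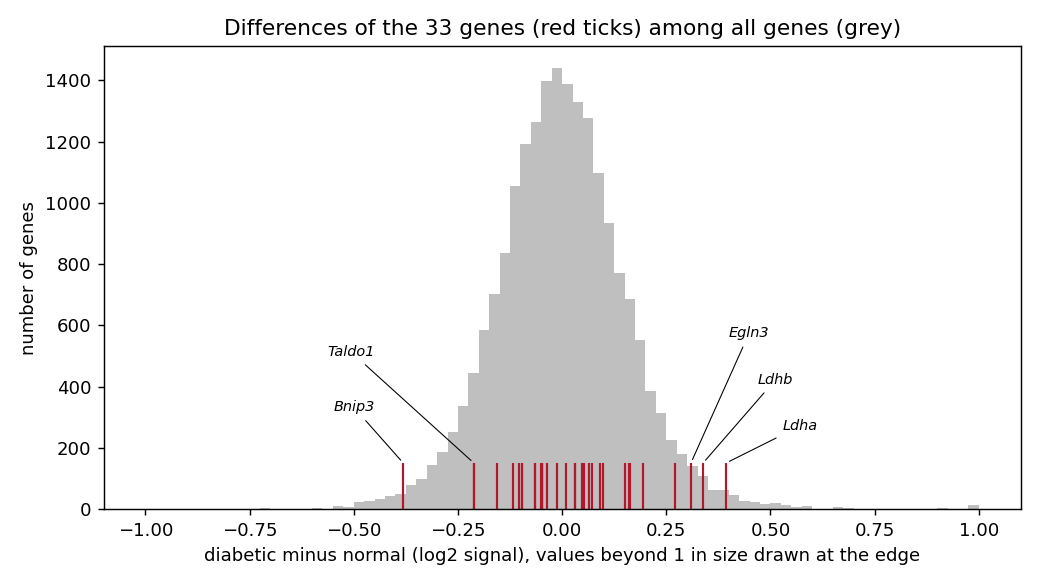
Histogram of the difference in log2 signal, diabetic minus normal (horizontal axis), over all 19938 genes, with the number of genes on the vertical axis and the 33 genes as red ticks. The ticks run from -0.38 (Bnip3) to 0.39 (Ldha) and lie on both sides of 0.

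HIF-1 binds DNA at a short core, ACGTG or GCGTG, and the stretches before the gene start were searched for it because many of these genes are HIF targets. The 250 bases before the start of Bnip3 and Egln3, the pair with the smallest p, and of Ldha, with the largest difference, are shown from RefSeq in build GRCm38.p6, 5′ to 3′ on the strand of the gene. Capitals mark ACGTG on either strand. Bnip3 lies at chr7:138909507-138909756 on the minus strand, Egln3 at chr12:54203875-54204124 on the minus strand and Ldha at chr7:46845554-46845803 on the plus strand, from the start with more matches of the 2 listed for Ldha.
Bnip3: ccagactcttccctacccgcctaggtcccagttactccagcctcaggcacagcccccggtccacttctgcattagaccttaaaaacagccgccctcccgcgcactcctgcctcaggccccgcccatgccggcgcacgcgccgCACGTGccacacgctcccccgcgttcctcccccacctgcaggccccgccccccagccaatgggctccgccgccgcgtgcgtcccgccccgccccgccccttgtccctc
Egln3: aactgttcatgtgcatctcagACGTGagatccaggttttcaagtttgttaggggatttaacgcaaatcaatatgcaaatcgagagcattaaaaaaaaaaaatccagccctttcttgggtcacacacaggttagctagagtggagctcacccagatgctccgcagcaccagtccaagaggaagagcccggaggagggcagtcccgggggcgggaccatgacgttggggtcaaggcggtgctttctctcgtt
Ldha: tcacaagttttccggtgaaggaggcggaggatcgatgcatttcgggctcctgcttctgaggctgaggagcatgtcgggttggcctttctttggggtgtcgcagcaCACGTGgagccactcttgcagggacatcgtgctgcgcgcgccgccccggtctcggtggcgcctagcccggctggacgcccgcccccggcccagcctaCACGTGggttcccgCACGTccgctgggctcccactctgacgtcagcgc
Ldha held 3 stretches in capitals, 2 of them the palindrome CACGTG, which reads as the core on both strands. Bnip3 held 1 such palindrome and Egln3 held 1 single ACGTG far from the start. GCGTG on either strand, not in capitals, matched 3 times in Bnip3 and 0 times in the Egln3 and Ldha stretches shown. Of the 32 measured genes with a listed start, 18 (56.2%) had ACGTG in this window at 1 or more of their starts, and 22 (68.8%) had GCGTG. Over 15614 genes of the array with a listed start the shares were 20.9% and 39.4%, and over the 2666 of these that exceeded the limit on every array they were 23.3% and 43.7%. Of all 32851 listed stretches, other genes included, 16.6% held ACGTG and 28.2% held GCGTG. The genes were picked in part as known HIF targets, base composition was not matched, and a match is no evidence of binding.

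Other genes of the same pathways gave no call either. Of 98 further genes, 90 were measured, 50 higher and 40 lower. Their median difference was 0.03, and 0 passed the adjusted threshold in limma. At an unadjusted p under 0.05 there were 7 of the 90, beside 5.56% of all genes, so their number is near that of the whole array. Of the 7, 1 was higher and 6 were lower in diabetic samples, and over all genes 526 were higher and 583 lower. The 7 are given as values. The higher was Pgls, the lactonase that follows glucose 6-phosphate dehydrogenase in the pentose phosphate pathway, at 2.74, 2.66 and 2.55 in diabetic and 2.32, 2.44 and 2.16 in normal samples. All 6 values were above the limit, the groups did not overlap, and the difference was 0.34 (SE 0.13, adjusted p of 0.839 in limma). Of 11 further pentose phosphate genes 8 were higher and 3 lower.

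Among the 6 lower genes, Minpp1, a phosphatase acting on bisphosphoglycerate and inositol phosphates, was at 1.94, 2.08 and 2.02 in diabetic and 2.35, 2.42 and 2.44 in normal samples. The difference was -0.39 (SE 0.12, adjusted p of 0.780 in limma), and 1 diabetic and all 3 normal arrays were above the limit. Hk3, the hexokinase of white blood cells, was above the limit on all 6 arrays, at 2.03, 2.04 and 2.14 in diabetic and 2.42, 2.34 and 2.26 in normal samples. That is a difference of -0.27 (SE 0.12, adjusted p of 0.887 in limma). Pdhx, a subunit of pyruvate dehydrogenase, differed by -0.32 (SE 0.10), Plod2, a collagen-modifying HIF target, by -0.26 (SE 0.11) and Cul2, the scaffold of the VHL ligase, by -0.25 (SE 0.11), each without overlap and each under the limit on all arrays. Rpe, an epimerase of the pentose phosphate pathway, differed by -0.27 (SE 0.13) with overlapping groups.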

How the data were processed

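The values deposited by the authors were log2 signals of 35556 probe sets on 6 whole-transcript arrays (3 diabetic, 3 normal), with the base of the logarithm inferred from their range. Per the submitters' processing notes Partek was used, without a version. The sources used here do not say how background, scaling and summarization were handled. Gene medians of the arrays lay between 1.79 and 1.83, and no scaling was added. The files held 0 columns of other series.

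The annotation gave 1 symbol to 21789 probe sets, several to 1621 and none to 12146. Of the first, 21698 matched the RefSeq gene table (GRCm38.p6) by gene ID and took its current symbol. The brightest probe set stood for each of 999 genes with several, and where identical probe sets tied (Pgk1, Pgam1) the lowest ID. Where these probe sets lie in the genome was not checked. No filter was applied. Values were equal on 2 or more arrays for 777 genes (3.90%), Ndrg1 and Ddit4 among them.

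The test was limma 3.58.1 under R 4.3.3 (lmFit, eBayes with trend, group as the only term), tested on simulated data. The simulation held 200 changed genes, with variances drawn from the fitted model. At an adjusted p under 0.05 limma recovered 39.4% of 1.5-fold and 96% of 2-fold changes. Values per array were given for genes above the limit on all arrays, with an unadjusted p under 0.05 or among the 3 largest differences each way. Other pathway genes were named at an unadjusted p under 0.05 without overlap. Cell type markers were named from the 3 brightest of a list. Rpe, the arrays of Cdh1, Pgd and Vhl, the dimmer probe sets, the pattern on replicate 2, the promoter search and the promoters shown were chosen after values were seen. Members, lists and limits were chosen with earlier results of these data known. Alternatives covered scaling, variance model, array weights, filters, several probe sets, a replicate block and each array left out. The number of arrays limits the precision.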

Additional observations from a re-analysis of the deposited data

How the results depend on the processing

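No gene of the 33 passed an adjusted p under 0.05 in limma under any of 16 alternatives, the smallest adjusted p being 0.621. The sign of the difference never changed for 19 of them, Bnip3, Egln3, Ldha and Ldhb included, and changed under at least 1 alternative for 14. Among all 19938 genes 0 passed, and between 0 and 2 with an array left out, the 2 without diabetic replicate 2 and 1 without diabetic replicate 3. The count of the 33 at an unadjusted p under 0.05 was 2. It was 1 in the ordinary linear model, 1 among the brighter 50% of genes and 1 among genes above the limit on at least 3 arrays (Bnip3 in each), and 1 with the mean of probe sets (Egln3). The brighter 50% held 21 of the 33 genes and the filter on the limit 18. Neither held Egln3, which was thus tested in 14 of the 16 alternatives. With arrays left out the count ran from 0, without diabetic replicate 1, to 4, without normal replicate 2 (Egln3, Ldha, Ldhb and Taldo1). It was 1 without diabetic replicate 3. The median difference of the 33 was 0.01 and ran from -0.03 to 0.05, below 0 without diabetic replicate 1, without normal replicate 1 and in the brighter 50% of genes. The count of 7 among other pathway genes was 4 in the brighter 50%, 3 above the limit on at least 3 arrays, and 4 to 8 with an array left out, the 4 arising without diabetic replicate 3 or normal replicate 1. Of the 33, 10 exceeded the limit on all arrays, 17 at the 90th percentile and 1 at the 99th. Deviations from the group means of same-numbered arrays correlated at -0.02, 0.01 and 0.01 over all genes. Only 17.4% of these genes exceeded the limit on every array, so the correlations cannot settle whether the arrays were paired. No label links the numbers, and they were not treated as pairs. With the replicate block 3 of the 33 had an unadjusted p under 0.05 (Ldha in addition) and 0 passed. The causes of these changes were not tested, beyond the fewer genes or arrays that some settings hold.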
